A study of Mus musculus with 5 samples.

Results

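The S100 proteins are a family of small calcium-binding proteins, and 10 of their genes were followed here in mouse glioma and in normal mouse brain: S100a1, S100a4, S100a6, S100a8, S100a9, S100a10, S100a11, S100a13, S100a16 and S100b. They were taken from single-colour Agilent 60K mouse expression arrays as the probes whose RefSeq accession belongs to one of these symbols, which gave 13 probes for the 10 genes among 28019 named probes for 21149 genes. Glioma was measured on 3 arrays and normal brain on 2, with 1 array per sample of total RNA, all from postnatal day 150. The gliomas belong to a mouse model built on MADM (mosaic analysis with double markers), a method that makes sparse, colour-marked mutant cells by recombination between chromosomes during cell division. For neither group do the labels state the mutated gene, the Cre driver, the strain or the brain region. They number the replicates without saying whether these were separate animals, so a p-value weighs only the spread among these 5 samples, which may be technical.

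S100 proteins carry a pair of EF-hand motifs, helix-loop-helix folds that hold calcium, and most act as dimers that expose a binding surface for target proteins when calcium rises. Some family members are also released from cells and bind receptors such as RAGE (gene Ager) and Toll-like receptor 4. In the brain S100b is the classic protein of astrocytes and is also made by oligodendrocyte lineage cells, whereas S100a8 and S100a9 form calprotectin, the abundant calcium-binding complex of neutrophils and monocytes. Most of the genes lie side by side in a cluster on mouse chromosome 3.

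Between 61.5% and 70.3% of the spots other than controls were well above background on each array, with no saturated spot. The 5 arrays shared 1 slide and 1 scan day, with gliomas in slide row 1 and normal brains in slide row 2, so that slide row and group cannot be told apart. Glioma array 3 stood apart in sex: Xist was well above background on it alone, and Ddx3y and Eif2s3y on the other 4 arrays. The labelled tissues were checked on marker genes. The summed scaled signal of 11 oligodendrocyte progenitor markers was 405.3 to 458.7 on the glioma arrays and 44.6 to 44.8 on the normal brain arrays, and that of 14 neuron markers was 84.8 to 123.3 on the glioma arrays and 861.7 to 878.6 on the normal brain arrays. Scaled signal is the processed signal divided by the array's 75th percentile. A log2 level is its log2, so that 0 is the 75th percentile of the array, and levels of different probes are not compared with each other.

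S100a6, S100a13 and S100a4 rose in glioma, by 4.88-fold, 2.95-fold and 2.88-fold, and no member fell. Of the 10 members 9 passed the filter of a probe well above background on at least 2 arrays, and S100a8 did not. Thus 3 of 9 tested members were called higher and 0 lower at an adjusted p under 0.05 (limma, adjusted by Benjamini-Hochberg over every gene tested), against 24.0% of 16888 genes called higher, 27.5% called lower and 51.5% called in either direction, so the count by itself does not set the family apart. The other 6 tested members did not pass. All gliomas lay above both normal brains for 3 members, against 35.6% of genes, and below them for 1, against 38.5%, so 4 of 9 members did not overlap, against 74.1% of genes. The median log2 change was 0.50 over the 9 members and -0.04 over all genes tested. Changes are glioma minus normal brain on the log2 scale, ± the standard error of the fit, with n = 3 and n = 2. In bulk tissue a change in the number of cells of a type and a change in RNA per cell cannot be told apart.

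**Figure D1:**
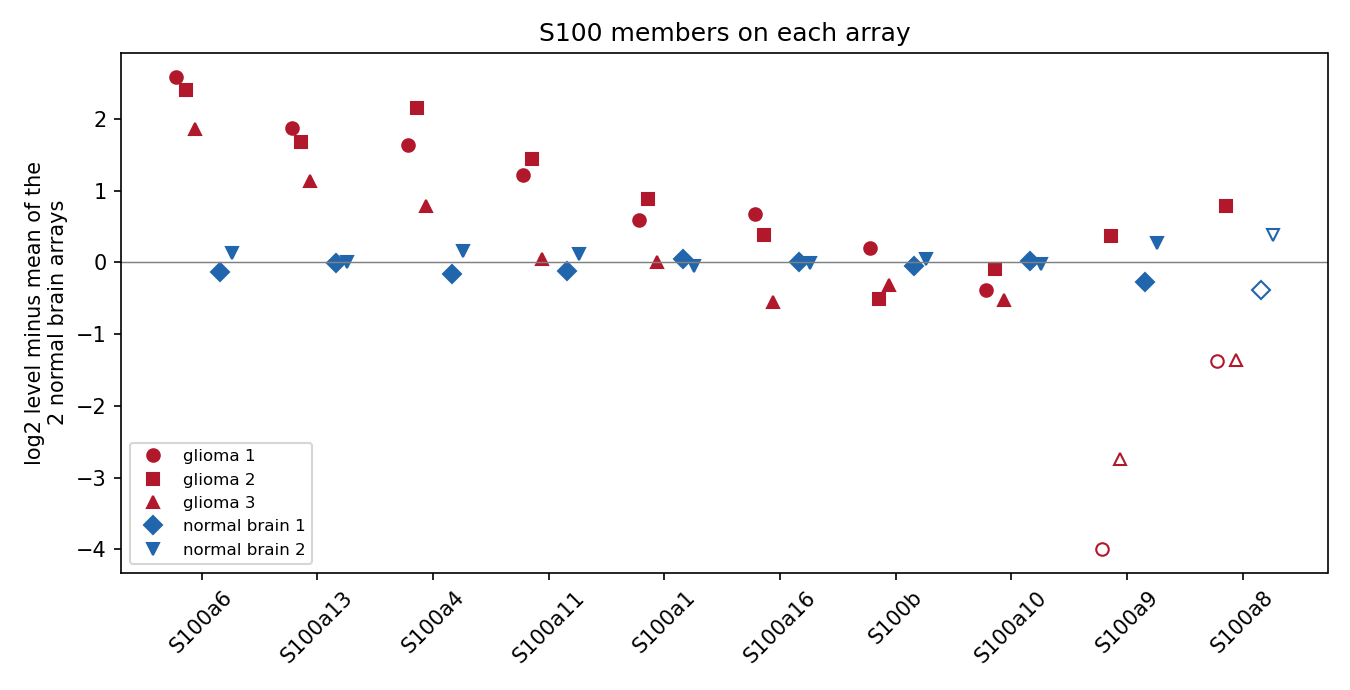
Log2 level of each S100 member on each array (vertical axis), minus the mean of the 2 normal brain arrays, with 3 glioma arrays in red left of 2 normal brain arrays in blue for every gene. Open symbols are probes not well above background on that array. All 3 gliomas lie above both normal brains for S100a6, S100a13 and S100a4, and S100a9 is spread over 4.37 log2 units among the gliomas.

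S100a6 encodes calcyclin, a protein first known from dividing cells and found in several glial and fibroblast-like cell types. Its log2 level was 5.42, 5.24 and 4.69 on glioma arrays 1 to 3, against 2.70 and 2.96 on normal brain arrays 1 and 2. Every glioma lay at least 1.73 above the higher normal brain sample. The change of 2.29 ± 0.26 (adjusted p = 0.00195, limma) was larger than the spread between samples, and it passed under each of the 13 alternative settings, between 2.13 and 2.63.

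S100a13 encodes a protein that takes part in the release of fibroblast growth factor 1 and interleukin 1 alpha, which leave cells without a signal peptide. Its log2 level was 4.69, 4.49 and 3.95 on glioma arrays 1 to 3, against 2.80 and 2.82 on the normal brain arrays. The groups did not overlap, and the normal brain samples differed by 0.02. The change was 1.56 ± 0.25 (adjusted p = 0.00579, limma), and it passed under all 13 alternatives, between 1.40 and 1.91.

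S100a4 encodes metastasin, also called fibroblast-specific protein, which binds non-muscle myosin and is made by fibroblasts and by some myeloid cells. Its log2 level was 1.27, 1.78 and 0.41 on glioma arrays 1 to 3, against -0.53 and -0.21 on the normal brain arrays. Glioma array 3 was the nearest to the normal brain values, 0.62 above the higher of them. The change was 1.52 ± 0.43 (adjusted p = 0.0333, limma), and the other S100a4 probe gave a change of 1.498 ± 0.43. The call held without glioma replicate 3 and was lost on leaving out any other array: the limma adjusted p was 0.0849 without glioma replicate 1, 0.0585 without glioma replicate 2, 0.156 without normal brain replicate 1 and 0.1 without normal brain replicate 2, with changes between 1.21 and 1.69.

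The 3 genes that rose share a stretch of chromosome 3, and the 250 bases before their annotated first bases are shown to set their promoters side by side (RefSeq, GRCm38.p6, 5′ to 3′ on the plus strand, chr3:90612644-90612893 for S100a6, chr3:90603520-90603769 for S100a4 and chr3:90514185-90514434 for S100a13). Capitals mark a TATA box in S100a4, and in S100a13 the 104 bases that separate its first base from that of S100a1, which is transcribed the other way. The first base used for S100a13 is not the start of its annotated gene span. That span starts at 90514233, within the window shown and within the span of S100a1.
S100a6: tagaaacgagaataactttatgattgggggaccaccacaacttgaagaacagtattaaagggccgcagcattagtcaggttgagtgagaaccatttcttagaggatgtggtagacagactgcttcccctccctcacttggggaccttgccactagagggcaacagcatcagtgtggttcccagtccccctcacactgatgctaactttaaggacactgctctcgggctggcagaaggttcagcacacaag
S100a4: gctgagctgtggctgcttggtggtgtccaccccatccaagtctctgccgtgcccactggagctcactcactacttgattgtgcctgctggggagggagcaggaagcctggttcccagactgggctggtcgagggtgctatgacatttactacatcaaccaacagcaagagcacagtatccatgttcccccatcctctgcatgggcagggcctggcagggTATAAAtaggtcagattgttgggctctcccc
S100a13: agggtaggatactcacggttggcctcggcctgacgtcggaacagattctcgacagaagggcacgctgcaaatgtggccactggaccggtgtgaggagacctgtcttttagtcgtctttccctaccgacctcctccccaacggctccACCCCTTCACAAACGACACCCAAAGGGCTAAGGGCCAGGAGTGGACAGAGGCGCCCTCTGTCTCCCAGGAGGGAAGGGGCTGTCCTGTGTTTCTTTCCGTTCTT

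A TATA box (TATAAA, on either strand) was found in the S100a4 window and not in the S100a6 or S100a13 window, and 12.4% of 32851 such mouse windows hold one. Neither a GC box (GGGCGG, in 32.7% of windows) nor an AP-1 site (TGANTCA, in 6.75%) was found in any of these 3 windows, searched on both strands. Windows of members that were not called varied. The S100a11 window held 3 GC boxes and 2 AP-1 sites. Those of S100a1, S100a8 and S100b held neither motif, as in the 3 genes that rose, and that of S100a8 held a TATA box. The S100a13 window held 13 CG pairs and the S100a6 and S100a4 windows 3 and 2, against a median of 6 over all windows. These matches describe the letters only. Of the 10 members, 9 had a window, and S100a10 had none in the table used.

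At the first bases used for the windows, S100a1 and S100a13 start 104 bases apart and run in opposite directions. They were compared on the same arrays. S100a1 encodes a protein best known from heart muscle, where it acts on the ryanodine receptor and the calcium pump of the sarcoplasmic reticulum. Its log2 level was 3.13, 3.43 and 2.55 on glioma arrays 1 to 3, against 2.59 and 2.49 on the normal brain arrays. Glioma array 3 lay between the normal brain values, so the groups overlapped, and the change of 0.50 ± 0.29 did not pass (adjusted p = 0.205, limma, 95% interval -0.24 to 1.23). The difference of S100a13 minus S100a1 within each array was 1.55, 1.06 and 1.40 on the glioma arrays, against 0.21 and 0.33 on those of normal brain. The groups did not overlap, and the mean difference was 1.34 ± 0.25 in glioma and 0.27 ± 0.09 in normal brain (SD, n = 3 and n = 2). The exact permutation test gave p = 0.2, two-sided, which is the smallest that 3 arrays against 2 allow. Groups that do not overlap always give this value, so the test adds nothing to that. A second S100a1 probe gave a change of 0.71 ± 0.27, which did not pass over all probes (adjusted p = 0.0857, limma). The gene spans of S100a1 and S100a13 overlap in the annotation, so a probe in the shared stretch could read either gene.

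S100a11, S100a16, S100a10 and S100b did not pass either. S100a11 encodes calgizzarin, which binds annexin A1. Its log2 level was -0.0047, 0.22 and -1.18 on glioma arrays 1 to 3, against -1.34 and -1.11 on the normal brain arrays. Gliomas 1 and 2 lay above both normal brains and glioma 3 lay between them, with a change of 0.90 ± 0.45 (adjusted p = 0.151, limma, 95% interval -0.25 to 2.06). S100a16, a widely expressed member with a low affinity for calcium, had log2 levels of 4.96, 4.67 and 3.75 on the glioma arrays, against 4.29 and 4.29 on the normal brain arrays. Glioma 3 lay below and gliomas 1 and 2 above the normal brains, and the change was 0.17 ± 0.38 (adjusted p = 0.734, limma, 95% interval -0.81 to 1.15). Its other probe gave 0.23 ± 0.36.

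S100a10 encodes p11, a member that has lost calcium binding and forms a complex with annexin A2. Its log2 level was 0.83, 1.13 and 0.70 on glioma arrays 1 to 3, against 1.23 and 1.19 on the normal brain arrays. All gliomas lay below both normal brains, as did 38.5% of all genes tested, but the change of -0.33 ± 0.18 did not pass (adjusted p = 0.18, limma, 95% interval -0.78 to 0.13). It was 0.019 in the deposited value table without scaling between arrays, where the median change of all genes was 0.31.

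S100b had log2 levels of 6.04, 5.33 and 5.53 on glioma arrays 1 to 3, against 5.78 and 5.89 on the normal brain arrays. The groups overlapped, with glioma 1 the highest of all arrays and glioma 2 the lowest. The change was -0.21 ± 0.25 (adjusted p = 0.517, limma), and the 95% interval of -0.83 to 0.42 holds no 2-fold change in either direction. In the unscaled table the change was 0.13. Of 15 astrocyte markers 8 fell and 1 rose over the same arrays, among them the gap junction genes Gja1 (-3.14 ± 0.59) and Gjb6 (-3.09 ± 0.46), the angiotensinogen gene Agt (-2.42 ± 0.61) and the glutamate transporter gene Slc1a2 (-2.08 ± 0.22), while Sox9 rose by 1.59 ± 0.40. Of 11 oligodendrocyte progenitor markers 10 rose and of 14 oligodendrocyte markers 8 fell. Over all genes tested 24.0% were called higher and 27.5% lower. The part of these cell types in the level of S100b was not tested.

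Each of the calprotectin genes S100a8 and S100a9 was not well above background on some arrays. Of the 5 arrays, S100a8 was detected well above background on glioma array 2 alone, with log2 levels of -6.70, -4.53 and -6.68 on glioma arrays 1 to 3, against -5.71 and -4.95 on the normal brain arrays, and was not tested. S100a9 was well above background on glioma array 2 and both normal brain arrays, with log2 levels of -7.07, -2.71 and -5.82 on glioma arrays 1 to 3, against -3.35 and -2.81 on the normal brain arrays. Glioma 2 was thus at the level of the normal brains for S100a9, and gliomas 1 and 3 were not well above background for either gene. The fitted S100a9 change of -2.12 ± 1.30 did not pass (adjusted p = 0.228, limma). Without glioma replicate 2 the fit passed (adjusted p = 0.0118, limma), but with both remaining gliomas not well above background only a bound is known, at least 5.44-fold lower in glioma.

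Neutrophil markers did not follow a single pattern over these arrays. Of 17 genes listed 16 were named on the array and 11 were well above background on at least 1 array. The granule genes Ltf and Ngp, the protease gene Mmp8, Retnlg and Itgb2l were not well above background on any array. Mpo, the peroxidase of neutrophil and monocyte granules, was well above background on all gliomas and on no normal brain, and was at least 13.97-fold higher in glioma. Such a bound sets each normal brain array to the lowest signal among probes well above background or to the probe's own value where higher. Lcn2 rose by 1.90 ± 0.23, Stfa2 by 1.13 ± 0.32, and Camp fell by 1.08 ± 0.17. The summed scaled signal of the list was 70.1 to 118.2 on the glioma arrays and 68.8 to 76.0 on the normal brain arrays. Csf3r, a receptor gene that microglia also express, made up 94.9% to 97.8% of that sum, and without it the sum was 3.59, 2.74 and 3.91 on glioma arrays 1 to 3, against 1.67 and 1.48 on the normal brain arrays. The part of these genes in the S100a8 and S100a9 values was not tested.

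Glioma array 3 was the lowest of the 3 gliomas for 7 of the 8 members that were well above background on all arrays, S100b being the exception, against 40.8% of 14858 genes detected in the same way. The median deviation of these 8 members from their own glioma mean was 0.31 on glioma array 1, 0.23 on array 2 and -0.46 on array 3, whereas the median over all 14858 genes was 0.03, -0.01 and -0.03. The gliomas of these 8 members spanned 0.43 log2 units for S100a10 to 1.39 for S100a11, and the 2 normal brains differed by 0.002 for S100a16 to 0.32 for S100a4. Without glioma replicate 3, 6 members were called higher, as were 4431 of 16888 genes tested. The added members were S100a11 (1.33), S100a1 (0.74) and S100a16 (0.53, adjusted p = 0.0485, limma). Array 3 was the lowest glioma for each of them, so leaving it out had to raise their changes.

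Markers of other cell types also differed between the gliomas. The summed scaled signal of the 15 astrocyte markers was 427.1, 332.3 and 252.4 on glioma arrays 1 to 3, against 511.5 and 499.0 on the normal brain arrays. For the 12 microglia markers, all detected, it was 217.0, 337.1 and 216.8 on glioma arrays 1 to 3, against 153.4 and 154.5 on the normal brain arrays. Without Siglech, their brightest gene, it was 137.2, 244.9 and 96.4 on glioma arrays 1 to 3, against 72.2 and 76.7 on the normal brain arrays. For oligodendrocyte markers, all 14 detected, it was 236.7, 507.7 and 130.9 on glioma arrays 1 to 3, against 568.0 and 611.9 on the normal brain arrays. The sum thus differed more among the gliomas than between the normal brains. For monocyte and macrophage markers, of which 12 of 13 named were detected, it was 170.9, 77.5 and 93.3 on glioma arrays 1 to 3, against 38.7 and 36.0 on the normal brain arrays. Ms4a4c made up 72.8% to 92.3% of that sum, and without it the order of the gliomas changed, with 13.1, 21.1 and 24.8 on glioma arrays 1 to 3, against 6.84 and 6.89 on the normal brain arrays. The list had no single order. Vcan (log2 levels 2.38, 2.73 and 3.62) and Fn1 (2.00, 2.47 and 2.80) were highest on glioma array 3. Plac8 (-1.29, -0.12 and -2.25) and Lyz2 (-1.52, 0.29 and -0.29) were highest on glioma array 2. Of 11 tested, 5 were called higher and 3 lower, against 24.0% and 27.5% of all genes tested. With and without the brightest gene of each list, Aldoc and Siglech, the astrocyte sum was lowest on glioma array 3 and the microglia sum was highest on array 2, where S100a4, S100a1, S100a10 and S100a11 were also highest. Glioma array 3 was in addition the array of the other sex. The part of these differences in the S100 values was not tested.

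Meningeal, fibroblast and vessel markers, which include sources of S100a4 and S100a6, were lower in glioma in 12 of 14 cases and higher in none. Over all genes tested 27.5% were called lower and 24.0% higher. The median log2 change of these markers was -1.49. Their summed scaled signal was 14.8 to 16.8 on the glioma arrays and 46.9 to 51.6 on the normal brain arrays. Choroid plexus and ependyma markers fell in 10 of 11 cases, with a summed signal of 0.89 to 1.77 on the glioma arrays and 291.3 to 292.5 on the normal brain arrays. For red blood cell markers, 5 of 6 fell, and the sum was 21.6 to 34.3 on the glioma arrays and 292.6 to 339.4 on the normal brain arrays. The part of these cell types in the S100 values was not tested.

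The array also carries 8 other S100 genes. S100a14, known from epithelia, was well above background on all 3 gliomas and on neither normal brain, with log2 levels of -2.75, -2.66 and -3.16 on the glioma arrays, against -6.85 and -5.69 on the normal brain arrays. It was at least 4.54-fold higher in glioma. Its adjusted p (0.0019, limma) rests on normal brain signals at background, and it passed the filter on dim probes through the gliomas alone. S100a3, a protein of the hair cuticle, had log2 levels of -0.60, -0.58 and -1.16 on the glioma arrays, against -2.40 and -2.18 on the normal brain arrays, and rose 2.84-fold (adjusted p = 0.00521, limma). S100a2 had log2 levels of -3.18, -2.87 and -3.00 on the glioma arrays, against -3.88 and -4.01 on the normal brain arrays, and rose by 0.93 ± 0.16 (adjusted p = 0.00679, limma). None of these 3 genes overlapped between the groups, and the annotated span of S100a3 covers that of S100a2, so that overlapping transcripts cannot be told apart. S100a5, known from olfactory sensory neurons, did not pass, with a change of -0.48 ± 0.60 and its highest level on glioma array 3. S100a7a, S100a7l2, S100g and S100z were not well above background on any array.

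The chromosome 3 cluster runs from S100a1 to S100a9 with 12 S100 genes on the array, of which 10 were tested, 6 rose, none fell and 4 did not pass, against 24.0% of all genes tested called higher and 27.5% lower. Without S100a14, not well above background on either normal brain, 5 of 9 rose. The tested genes elsewhere, S100a11 and S100a10 farther along chromosome 3 and S100b on chromosome 10, did not pass, and the difference between these places was not tested. Within the cluster the genes that rose were not all adjacent: S100a13 and S100a14 were followed by S100a16, which did not pass, then by S100a3, S100a2 and S100a4, which rose, by S100a5, which did not pass, and by S100a6, which rose.

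**Figure D2:**
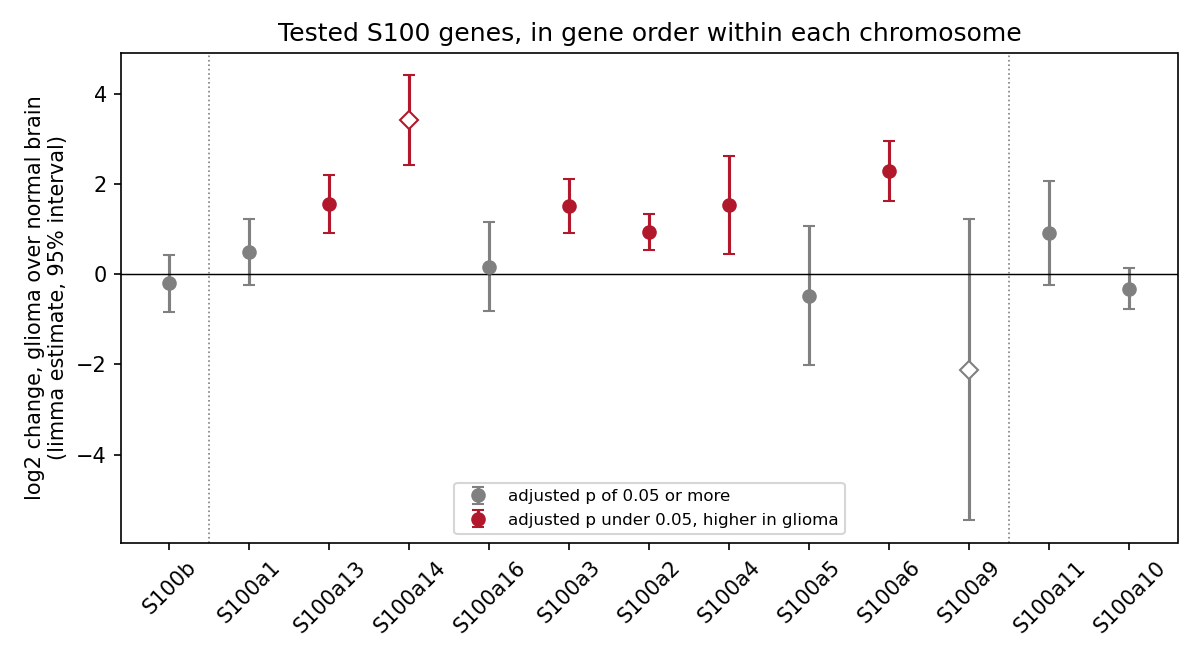
Log2 change of the 13 tested S100 genes, glioma over normal brain (vertical axis, limma estimate with 95% interval), in gene order, with S100b on chromosome 10 at the left and S100a11 and S100a10 at the right outside the dotted lines that bound the S100a1 to S100a9 cluster. Red marks an adjusted p under 0.05, and open diamonds mark S100a14 and S100a9, whose probes were well above background on 3 of 5 arrays.

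Genes that flank the cluster were taken as the 10 nearest named genes on each side, S100 genes left out. Of 19 such genes, 14 were tested, 6 rose and 3 fell, against 24.0% of all genes tested called higher and 27.5% lower. Their median log2 change was 0.38. On the side of S100a1 the zinc transporter gene Slc39a1 rose 2.82-fold, and Chtop, the gene next to S100a1, rose by 0.50 ± 0.14 on the log2 scale. Npr1, a natriuretic peptide receptor gene, was at least 1.76-fold higher, and Dennd4b fell by 1.00 ± 0.21. Npr1 was not well above background on either normal brain and passed the filter on dim probes through the gliomas alone. On the side of S100a9, where genes of skin barrier proteins follow, 5 genes were not well above background on any array. There Lor, which encodes loricrin, fell by 1.94 ± 0.55. Around S100b, 2 of 9 tested neighbours fell and none rose, against the same shares over all genes tested. Around S100a10 and S100a11 a single neighbour, Tchh, was detected and did not pass.

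Partners of S100 proteins moved in both directions. Of 27 partner and target genes listed, 25 were tested, 13 fell and 5 rose, against 27.5% of all genes tested called lower and 24.0% higher, and the median log2 change was -1.17. Without Il1a, not well above background on either normal brain, 4 of 24 rose and 13 fell. Genes tied to S100a10 differed: Anxa2, which encodes annexin A2, changed by -0.21 ± 0.38 (adjusted p = 0.667, limma), and Ahnak, whose giant scaffold protein binds the annexin A2 and p11 complex, fell by 1.17 ± 0.27. Plat, which encodes tissue plasminogen activator, a ligand of that complex, rose by 1.59 ± 0.16. Anxa11, a partner of calcyclin, fell by 2.01 ± 0.20 while S100a6 rose, and the calcyclin-binding protein gene Cacybp changed by 0.06 ± 0.15 and did not pass. Of the genes tied to S100a4, Ppfibp1, which encodes liprin beta 1, rose by 3.37 ± 0.24 and Myh9, the non-muscle myosin heavy chain gene, changed by 0.17 ± 0.14 and did not pass.

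The cargo and partner genes of S100a13 went different ways. Fgf1 fell by 1.62 ± 0.43 and Syt1, a synaptotagmin gene of neurons, fell by 3.35 ± 0.24. Il1a was well above background on 2 of 3 gliomas and on neither normal brain, so only a bound is known, at least 1.29-fold higher in glioma. The muscle-type targets of S100a1 were lower, Ryr2 by -3.48 ± 0.28 and Atp2a2 by -2.24 ± 0.15. Htr4, a serotonin receptor gene listed for S100a10, fell by 4.45 ± 0.20, and 1 of 3 gliomas had it well above background. Syt1 and Syn1 (-2.52 ± 0.20) are in the list of neuron markers too, all 14 of which fell. The part of neuron content in these falls was not tested.

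Of 8 receptor genes for released S100 proteins, 3 rose and none fell, against 24.0% of all genes tested called higher and 27.5% lower, with a median log2 change of 1.04, or 0.76 with Ager at its bound. Tlr4 had log2 levels of 0.14, -0.09 and 0.24 on glioma arrays 1 to 3, against -3.83 and -3.02 on the normal brain arrays. It rose by 3.52 ± 0.28 (adjusted p = 0.000766, limma), and its partner gene Ly96 by 2.22 ± 0.30. Ager, the RAGE gene, was at least 1.65-fold higher in glioma and was not well above background on either normal brain, and 2 of the 7 other receptor genes rose. Bsg, Cd14, Cd33, Cd36 and Erbb4 did not pass. Their log2 changes were -0.59, 0.79, 1.29, -0.79 and -0.63 in that order.

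Other EF-hand genes give a comparison with the wider protein class. Of 46 listed, 45 were tested, 30 fell and 7 rose, against 27.5% of all genes tested called lower and 24.0% higher. The median log2 change of the list was -1.51. Calb2 and Pvalb, the calretinin and parvalbumin genes of inhibitory neurons, fell by 5.55 ± 0.41 and 4.87 ± 0.33, and Necab1, a neuronal calcium-binding protein gene, fell by 4.15 ± 0.36. The Calb2 probe was well above background on 2 of 3 gliomas. Tescl, among the 7 that rose, was at least 10.5-fold higher in glioma. It was not well above background on either normal brain and passed the filter on dim probes through the gliomas alone. The difference between the S100 genes and this list was not tested.

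**Figure D3:**
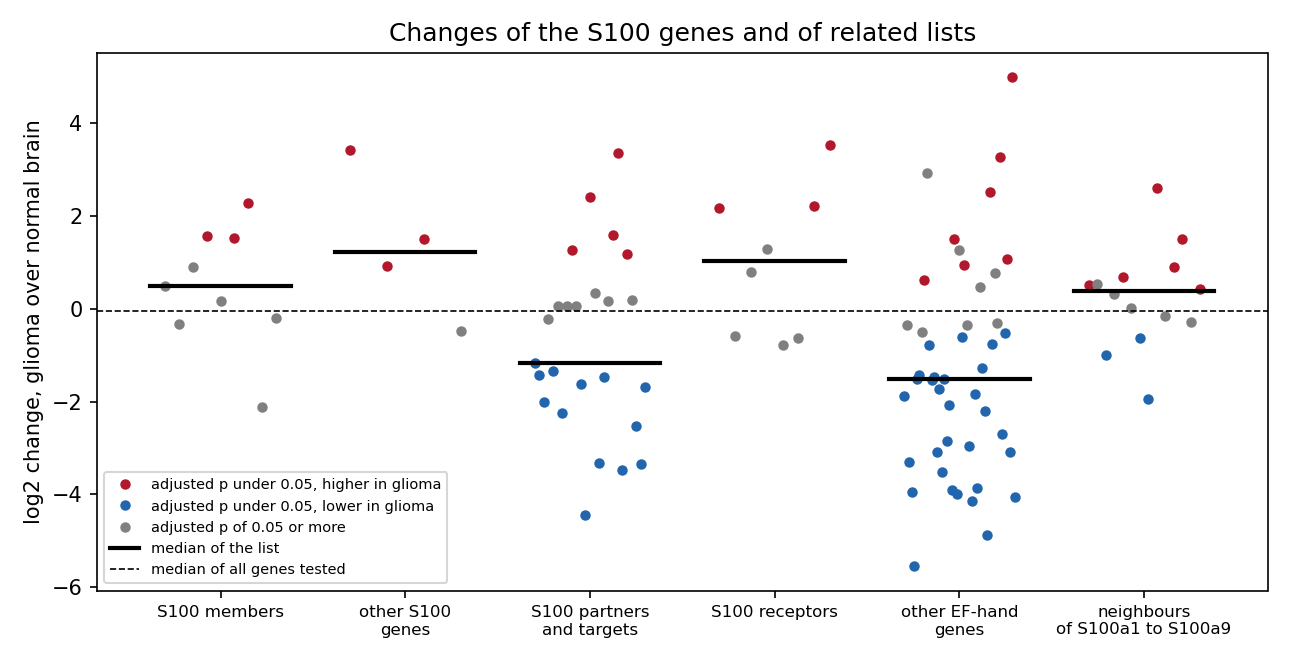
Log2 change, glioma over normal brain (vertical axis), of each tested gene of 6 lists, with red for an adjusted p under 0.05 and higher in glioma, blue for an adjusted p under 0.05 and lower, and grey for the rest. The black bars are list medians, 0.50 for the S100 members and -1.51 for the other EF-hand genes, and the dashed line is the median of all genes tested, -0.04.

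The genes with the profile most like S100a6, the member with the largest rise, were found by the root mean square distance between log2 profiles over the 5 arrays, each centred on its own mean. They were Jpt2 (distance 0.10), Tmc6 (0.10) and Fbxl7 (0.12), with changes of 2.26 ± 0.20, 2.17 ± 0.24 and 2.50 ± 0.27. All 3 were lowest among the gliomas on array 3, as S100a6 was. With 5 arrays such a likeness is only a description.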

How the data were processed

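Per the submitters' processing notes, the scans were read with Feature Extraction 10.7.3.1. The deposited scanner files hold spot intensity, background-subtracted per the file headers and not scaled between arrays. The log2 values of the authors' deposited value table equal the log2 of that signal on every array, with medians of 6.08, 6.35 and 6.12 for gliomas 1 to 3 and 5.87 and 5.82 for normal brains 1 and 2. The other spot measures used for the main fit are 0 or 1 flags.

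Control spots and outlier spots were dropped, spots of a probe averaged in log2, and the array's 75th percentile subtracted. Of 29787 probes with a RefSeq accession, 28019 were named through a supplied table, which is also the source of the GRCm38.p6 coordinates, and the brightest probe stood for its gene. Genes with that probe above background on 2 or more arrays entered limma 3.58.1 (lmFit, eBayes, R 4.3.3), which was tested on simulated data. The simulation had 10 runs, each with 100 genes changed per size. A 2-fold change was called in only 6.2% of cases and a 4-fold change in 74.3%, while 5.83% of the calls were false. Not passing therefore does not by itself exclude a 2-fold change. In the real data 51.5% of genes were called, so the simulated shares may not carry over. Python 3.11.15, scipy 1.17.1 and matplotlib 3.10.9 made the tables and figures. The number of arrays limits the precision. Normexp (offset 50), tried as an alternative, used median spot and background signals, whereas the main fit used the processed signal.

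The members and lists were chosen with earlier results of these data known. Named were all S100 genes, up to 4 called genes of the largest change per list, genes a result turns on, and the 3 nearest profiles to the member with the largest rise; no member fell. Sox9 and the partners beyond the 4 were chosen after their values were seen. Deviations of same-numbered samples from their group means correlated at 0.04 in both pairs over 14858 genes, and the labels tie the numbers to nothing else.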

Additional observations from a re-analysis of the deposited data

How the results depend on the processing

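Of the 13 alternatives, S100a6 and S100a13 passed under every one. Under normexp, quantile normalization, the unscaled table, both other filters, the mean of detected probes and a mean-variance trend, 3 members were called higher and 0 lower. Over the whole array these settings called 3602 (filter of all 5 arrays) to 5599 genes (unscaled table) higher. They called 3184 (unscaled table) to 6025 genes (no filter on dim probes) lower. In the unscaled table the changes of S100a10 and S100b turned to 0.019 and 0.13, the median change of all genes being 0.31 there against -0.04, and 63.8% of calls were higher against 46.5%. The median of all genes was -0.17 with no filter on dim probes. With the replicate number as a block, which leaves glioma 3 without weight because no normal brain shares its number, 5 members were called higher. This added S100a1 (0.74, adjusted p = 0.0484 by limma) and S100a11 (1.33, adjusted p = 0.00986 by limma). The block changed no other call of a member, and 3878 genes were called higher over the whole array, against 4046 in the main fit. The samples share only a number.

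Leaving out 1 array at a time gave 2 to 6 members higher and 0 to 1 lower, 6 without glioma 3 and the 1 lower, S100a9, without glioma 2. The changes ranged from 0.30 to 0.74 for S100a1, 1.21 to 1.90 for S100a4, -3.37 to -1.18 for S100a9, 0.64 to 1.33 for S100a11 and -0.081 to 0.53 for S100a16, whose sign turned without glioma 1. The calls over the whole array ranged from 4605 to 9375, against 8696 with all arrays, of which 4046 were higher and 4650 lower. They were fewest without normal brain replicate 1 (4605) and replicate 2 (4617), where the lone normal brain is assumed to vary like the gliomas. Gliomas 1 and 3 were not well above background for S100a9, so its changes, -3.37 included, have no known size. S100a8 was well above background on glioma 2 alone. S100a9 has no value under the filter of all 5 arrays.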
